A study of Mus musculus with 14 samples.

Results

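The aquaporin family was followed through mouse liver by 7 genes, Aqp1, Aqp3, Aqp4, Aqp7, Aqp8, Aqp9 and Aqp11, matched by symbol among the 51912 genes counted in each of 14 RNA-seq libraries. The set was chosen by the level of Aqp4, which was lower in livers with autoimmune hepatitis (AIH) than in the other livers. The values of AIH livers against the other livers are therefore a description. Where a member is said to be past the threshold in them, this restates the values behind the choice, with no p-value, and supports nothing. The AIH group held 5 samples of Tet2fl/fl vav cre+ mice that had developed autoimmune hepatitis spontaneously. The asymptomatic group held 5 samples of Tet2fl/fl vav cre+ mice without symptoms, and the control group held 4 samples of Tet2fl/fl cre- littermates that the labels call healthy and WT. All groups were homozygous for the floxed Tet2 allele, untreated and 20 weeks old. The vav promoter drives cre in blood cells and in part of the endothelium, not in hepatocytes. RNA was taken from whole tissue of the left lobe. The labels do not say that each sample was a separate animal's, so p-values measure only the spread between these samples, part of which may be technical. No pair of libraries agreed within sampling noise, and AIH and control samples came from both sexes.

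Aquaporins are membrane channels that let water follow osmotic gradients, and a subgroup, the aquaglyceroporins, also conducts glycerol. In liver, hepatocytes take up the glycerol released by fat tissue through Aqp9, and water moves into bile through other family members. Aqp1 and Aqp8 are water channels, the first found in endothelium, bile duct cells and red cells, the second in hepatocytes. Aqp4 is best known as the water channel of brain astrocytes, Aqp3 and Aqp7 are aquaglyceroporins of epithelia and of adipocytes, and Aqp11 is a distant relative located in the endoplasmic reticulum.

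The sequence that marks the family is the repeated asparagine-proline-alanine signature at the centre of the pore, and its codons are shown because they separate the members. The codons AAC or AAT, followed by CCN and GCN, were searched in frame on the coding strand of 1 coding sequence per member. There were 2 matches each in Aqp1, Aqp3, Aqp4, Aqp8 and Aqp9, 1 in Aqp11 and 0 in Aqp7. Among 21812 mouse coding sequences, 1 per gene, 0.596% held exactly 2 matches. Windows of 27 bases follow for 5 members, each in a coding exon of the GRCm38 annotation from GENCODE, with the signature codons in capitals.
Aqp9, chr9:71132732-71132758, minus strand, exon 3: ggccacatcAACCCAGCGgtgtctttt
Aqp9, chr9:71122841-71122867, minus strand, exon 5: tgtgccatgAACCCTGCTcgagacctc
Aqp8, chr7:123464193-123464219, plus strand, exon 3: ggacacttcAACCCTGCTgtgtcgctg
Aqp8, chr7:123466602-123466628, plus strand, exon 5: gcctgcatgAACCCTGCTcgtgccttt
Aqp1, chr6:55336707-55336733, plus strand, exon 1: gctcacctcAACCCTGCGgtcacactg
Aqp1, chr6:55345828-55345854, plus strand, exon 3: tgcggtatcAACCCTGCCcggtcattt
Aqp3, chr4:41094810-41094836, minus strand, exon 3: gcccacttgAACCCCGCTgtgaccttc
Aqp3, chr4:41093832-41093858, minus strand, exon 5: tatgccgtcAACCCTGCCcgtgacttt
Aqp11, chr7:97729044-97729070, minus strand, exon 2: gcattgtttAACCCAGCGctggcactt

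Gene totals lay between 15968380 and 18915729 counts per library. Levels in CPM are counts relative to library size, scaled by TMM (trimmed mean of M values). All 17 hepatocyte genes that were matched had counts in every group, with summed levels of 115310 to 205580 CPM in AIH, 154560 to 180560 CPM in asymptomatic and 143590 to 193270 CPM in control livers. Tet2 itself had 10.5 ± 3.98 CPM in AIH livers (SD, n = 5), 6.82 ± 1.83 CPM in asymptomatic livers (SD, n = 5) and 10.7 ± 1.54 CPM in control livers (SD, n = 4), and a count over the whole gene in whole liver does not check a deletion of some exons in blood cells. By their Xist and Y-linked counts, AIH 4 was male and the other 4 AIH livers were female, all 5 asymptomatic livers were male, and controls 1 and 4 were male and controls 2 and 3 female. Sex and group were therefore entangled. Unaligned reads made up 3.23% to 6.54% of AIH, 4.93% to 9.27% of asymptomatic and 4.17% to 4.89% of control libraries. The AIH libraries carry the numbers 11 to 15 and the other groups numbers up to 10, so a difference in handling that followed the numbers cannot be told apart from AIH.

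The levels of the members were compared with each other in TPM, a transcript abundance that scales counts by exon length and by library. Aqp9 stood first with a mean of 320.8 TPM over the 14 libraries, followed by Aqp8 at 172 TPM and Aqp1 at 156 TPM. Aqp11 came next at 9.56 TPM and Aqp4 at 1.45 TPM. Aqp3 (0.118 TPM) and Aqp7 (0.0112 TPM) were at the limit of detection. Aqp8 and Aqp1 could not be put in order beyond their spread. Aqp8 ran from 39.5 to 433 TPM and Aqp1 from 100.3 to 216 TPM over the libraries. The lowest Aqp9 library (193 TPM) was below the highest Aqp8 and Aqp1 libraries, whereas Aqp11 stayed below all libraries of those 3 genes and above all libraries of Aqp4.

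The summed level of the 7 genes was 656 ± 178 TPM in AIH livers (SD, n = 5), 564 ± 172 TPM in asymptomatic livers (SD, n = 5) and 786 ± 212 TPM in control livers (SD, n = 4). Aqp9 made up 47.5% ± 14.7 of that sum in AIH, 52.2% ± 7.20 in asymptomatic and 52.0% ± 10.7 in control livers. Aqp8 made up 27.9% ± 16.0, 16.3% ± 11.3 and 25.1% ± 13.7 in AIH, asymptomatic and control livers. In AIH 4 the share of Aqp8 reached 49.5%, above that of Aqp9 in the same liver (29.6%). In AIH 2, by contrast, Aqp8 held 83.3 TPM and Aqp9 held 313 TPM.

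**Figure D1:**
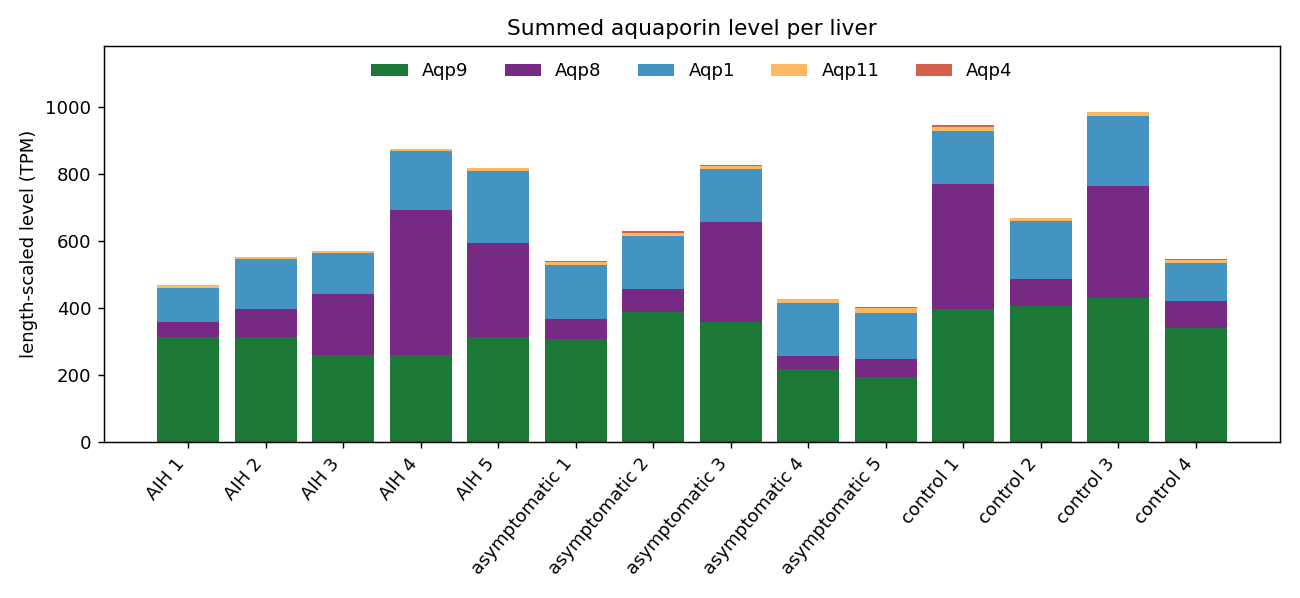
Stacked bars of the length-scaled level (TPM, linear axis from 0) of the 5 measurable members in each liver, with AIH, asymptomatic and control livers from left to right. Aqp9 and Aqp1 filled most of the bar in livers with little Aqp8, and the summed level ran from 469 to 874 TPM in AIH, 401 to 824 TPM in asymptomatic and 547 to 984 TPM in control livers.

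The genes were tested together with all others in 1 edgeR quasi-likelihood fit of the 14 libraries, on counts scaled by TMM. A filter on low counts left 14638 genes, among them 5 of the 7 members. Calls were made at a Benjamini-Hochberg adjusted p under 0.05. Aqp3 and Aqp7 did not pass the filter. In AIH against control livers 2 of the 5 tested members, Aqp4 and Aqp11, were past the threshold, both lower, against 21.7% of all genes in either direction and 6.08% lower. Scaling to hepatocyte genes in place of TMM called 3263 genes higher and 152 lower in this comparison, where TMM called 2284 higher and 890 lower. In AIH against asymptomatic livers the same 2 members were past it, both lower, against 29.8% of all genes in either direction and 10.7% lower. Nothing is read from these counts and shares: the choice of the family on the AIH difference fixed that Aqp4 would be among them. The median log2 fold change of the 5 members was -0.53 in AIH against control, beside -0.01 over all genes, and -0.24 in AIH against asymptomatic, beside -0.03 over all genes. Both contrasts share the AIH libraries.

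**Figure D2:**
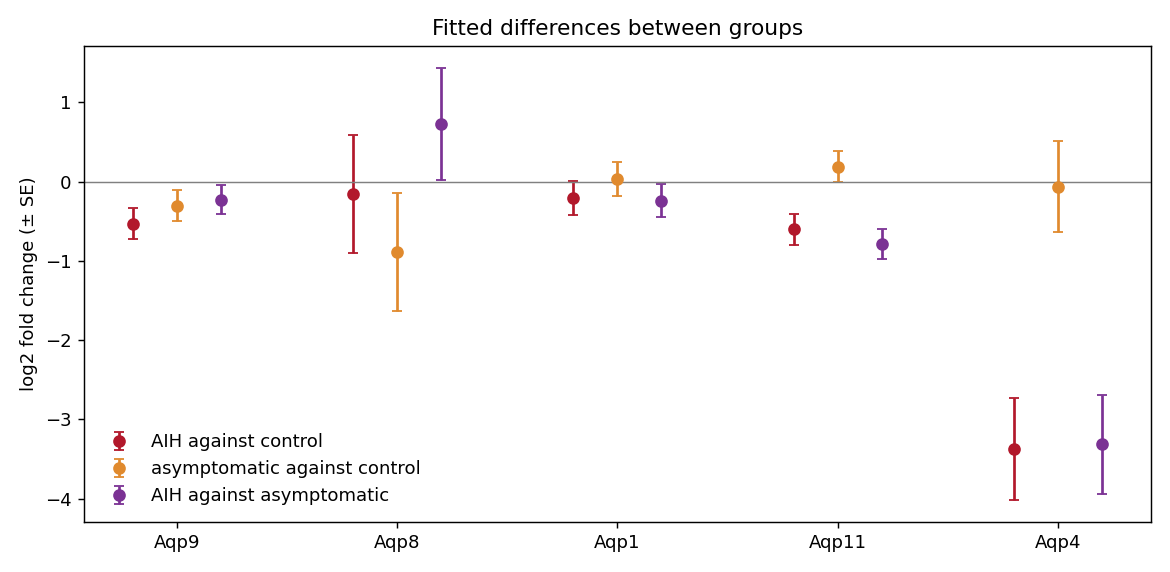
Fitted log2 fold changes (points) with their standard errors (bars) of the 5 tested members in the 3 comparisons, with 0 as the grey line. Aqp4 stands at -3.37 and -3.31 in the 2 comparisons with AIH livers and at -0.06 in asymptomatic against control livers.

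Aqp4 (ENSMUSG00000024411, chromosome 18, 15389496 to 15410982, minus strand, GRCm38) was the member with the lowest level in AIH livers relative to both other groups. Its counts in AIH 1 to 5 were 21, 2, 8, 11 and 9. In asymptomatic livers 1 to 5 they were 103, 198, 50, 60 and 18, and in controls 1 to 4 they were 130, 70, 43 and 149. On the scaled axis the AIH livers ran from 0.0972 to 1.01 CPM, below every asymptomatic liver (1.198 to 11.6 CPM) and every control liver (2.34 to 8.32 CPM). AIH 1, the highest of its group, lay close to asymptomatic 5, the lowest of its group. AIH livers averaged 0.528 ± 0.329 CPM (SD, n = 5), asymptomatic livers 5.31 ± 4.05 CPM (SD, n = 5) and control livers 5.56 ± 2.87 CPM (SD, n = 4). The log2 fold change was -3.37 ± 0.64 (SE) against control, a level 10.4-fold lower, and -3.31 ± 0.63 against asymptomatic livers. At a few counts per AIH library, the 95% Poisson interval of the count in AIH 2 ran from 0.242 to 7.22, and intervals of this kind cover counting error only.

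The male AIH liver held 0.615 CPM of Aqp4, against 7.60 and 8.32 CPM in male controls. The 4 female AIH livers ran from 0.0972 to 1.01 CPM, against 3.96 and 2.34 CPM in female controls. AIH livers thus lay below control livers of the same sex. Of 17 genes known to be female-biased in liver, 14 were called higher in AIH against asymptomatic livers (19.1% of all genes). Of 16 male-biased genes 5 were called lower there (10.7% of all genes). With sex as a term the log2 fold change was -2.95 against control. Against asymptomatic livers it was -2.53 in that fit and no longer passed the threshold. Within females (4 AIH, 2 control) it was -2.64 and within males (1 AIH, 2 control) -3.69, neither past the threshold. Hepatocyte genes were called lower in AIH than in asymptomatic livers in 6 of 17 cases (10.7% of all genes). Against control this was so in 0 of 17 cases (6.08% of all genes). When counts were scaled to these genes, the log2 fold change of Aqp4 was -3.16 against control and -2.91 against asymptomatic livers. Of 15 markers of hepatocytes around the central vein, 4 were called lower against control (6.08% of all genes) and 11 were not called. Their median log2 fold change was -0.65. Of 14 markers of hepatocytes around the portal vein, 0 were called lower and 1 higher (15.6% of all genes were called higher), with a median of -0.40. The central markers had a summed level of 8834 to 9946 CPM in AIH, 12035 to 16169 CPM in asymptomatic and 13821 to 18597 CPM in control livers. Cyp2e1 alone averaged 4568 CPM in AIH, 8044 CPM in asymptomatic and 8601 CPM in control livers. The central markers Glul, Gulo and Rhbg had log2 fold changes of -0.04, 0.10 and 0.26 against control. The portal markers had a summed level of 6223 to 10329 CPM in AIH, 9591 to 12706 CPM in asymptomatic and 8818 to 11056 CPM in control livers, with overlap. Neutrophil genes were higher in AIH livers, with 14 of 15 called higher against control (15.6% of all genes). Their summed level was 38.7 to 2476 CPM in AIH, 8.84 to 71.0 CPM in asymptomatic and 11.05 to 47.2 CPM in control livers. The part of these cells in the Aqp4 level was not tested. In whole liver, fewer cells of a type and less RNA per cell cannot be told apart.

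**Figure D3:**
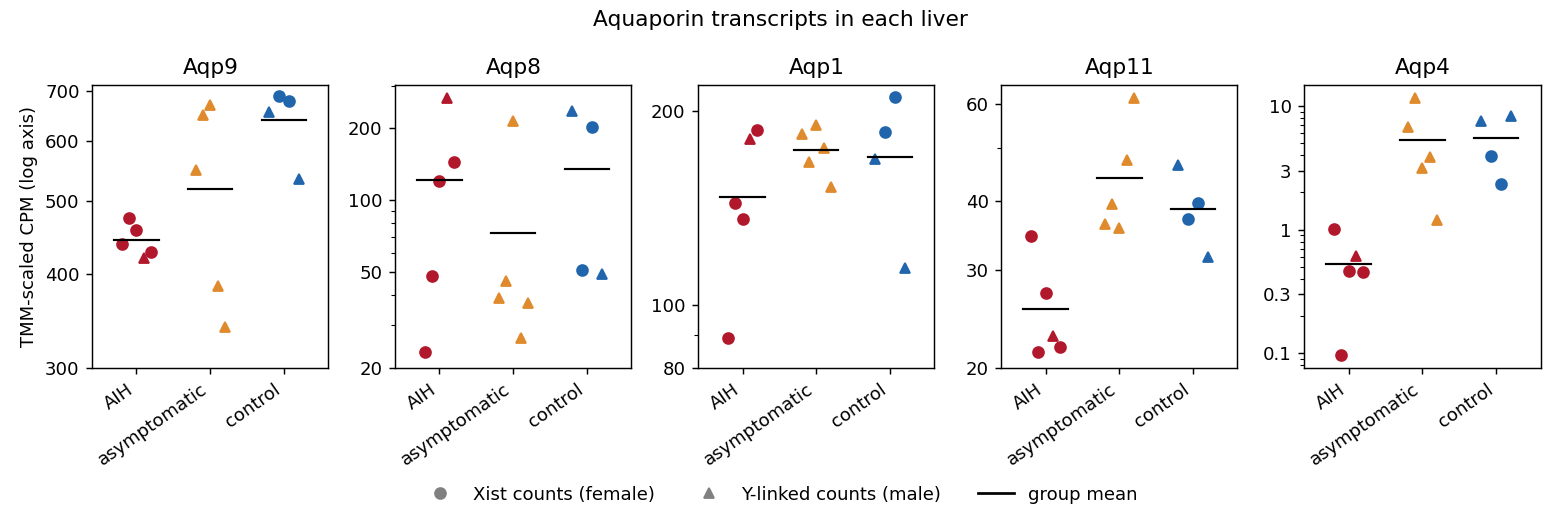
TMM-scaled CPM of the 5 tested members in each liver on log axes, with AIH, asymptomatic and control livers from left to right in each panel, circles for livers with Xist counts, triangles for livers with Y-linked counts, and the group mean as a bar. The 5 AIH livers lie below all others for Aqp4 (at most 1.01 CPM), while the groups overlap for Aqp8 and Aqp1.

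Aqp8 (ENSMUSG00000030762, chromosome 7, 123462291 to 123468004, plus strand), the hepatocyte water channel, varied most among the abundant members and did so within every group. AIH livers 1 to 5 held 23.2, 48.2, 121, 267 and 145 CPM. Asymptomatic livers held 38.9, 45.8, 215, 26.7 and 37.1 CPM, and controls held 236, 51.1, 203 and 49.2 CPM. All groups overlapped, and the range of each group spanned the means of the other groups. The highest liver of a group exceeded the lowest 11.5-fold in AIH, 8.04-fold in asymptomatic and 4.79-fold in control livers. The log2 fold change was -0.16 ± 0.74 in AIH against control and 0.73 ± 0.71 in AIH against asymptomatic livers. The sign against control changed in 7 of 23 other settings, so no direction is given.

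The control livers with high Aqp8 were those with a high ratio of the clock genes Dbp and Arntl, which peak at opposite times of day. The log2 ratio was 7.62 and 6.84 in controls 1 and 3, and -4.55 and -2.87 in controls 2 and 4. AIH 4, the liver with the most Aqp8, had a ratio of -1.86, and asymptomatic 4, with 26.7 CPM, had a ratio of 6.13. The order seen among the 4 controls was thus not that of the 14 livers together. With the ratio as a term, chosen after the data were seen, the log2 fold change of Aqp8 in AIH against control was 0.15. The labels used here give no time of day, and its part in the spread of Aqp8 was not tested.

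**Figure D4:**
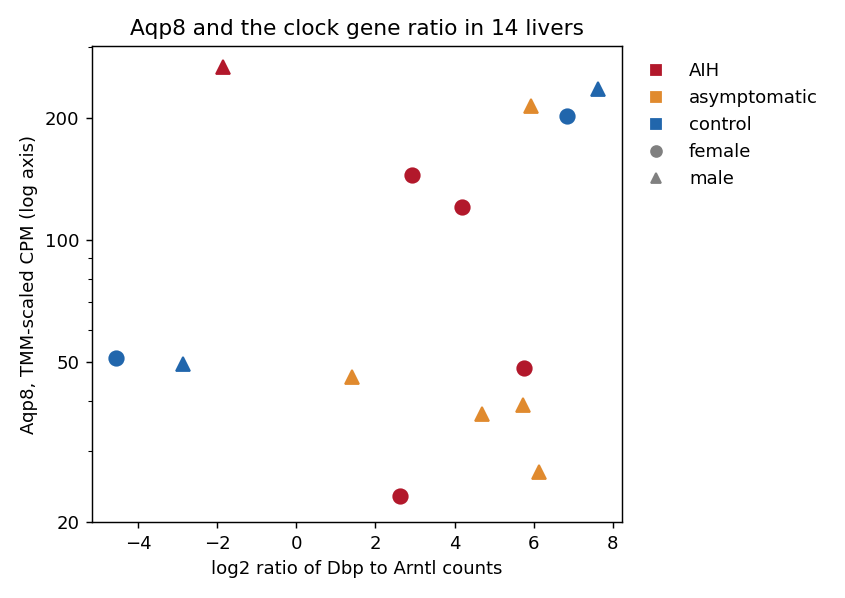
TMM-scaled CPM of Aqp8 (log axis) against the log2 ratio of Dbp to Arntl counts in the 14 livers, with colours for AIH, asymptomatic and control and shapes for sex as read from the counts. AIH 4 lies at the upper left with 267 CPM, and 4 asymptomatic livers lie at 26.7 to 45.8 CPM. Controls 1 and 3 lie at the upper right and controls 2 and 4 at the lower left.

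The promoter of Aqp8 is shown because of these values. The 250 bases before the RefSeq start (GRCm38.p6, chr7:123462044-123462293, plus strand) hold the palindrome CACGTG, the canonical E-box, in capitals, 75 bases before the start.
Aqp8 promoter: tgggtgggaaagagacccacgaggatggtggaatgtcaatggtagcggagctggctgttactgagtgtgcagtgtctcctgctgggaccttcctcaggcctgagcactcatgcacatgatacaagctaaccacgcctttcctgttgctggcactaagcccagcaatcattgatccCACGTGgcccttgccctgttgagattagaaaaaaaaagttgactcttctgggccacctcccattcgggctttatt
Of 32851 mouse promoters of this length 6.02% held CACGTG, and of the 8 promoters of 6 members in the table that of Aqp8 did. In all, 5 motifs were searched on both strands, and CACGTG reads the same on either. Aqp4 had no entry. TATAAA was found in Aqp3 (12.4% of all promoters), GGGCGG in Aqp1 and Aqp3 (32.7%), and CCAAT (33.8%) and the DR1 element of nuclear receptors (0.0335%) in no member in the table. A match of letters is a description of the sequence and not a site of binding.

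Aqp1 (ENSMUSG00000004655, chromosome 6, 55336432 to 55348555, plus strand) was measured at 147 ± 39.4 CPM in AIH livers (SD, n = 5), 174 ± 14.8 CPM in asymptomatic livers (SD, n = 5) and 169 ± 40.7 CPM in control livers (SD, n = 4). AIH 1 was lowest at 88.9 CPM, control 4 followed at 114 CPM, and control 3 was highest at 210.0 CPM, so that the groups overlapped. The log2 fold change was -0.20 ± 0.21 in AIH against control and -0.24 ± 0.20 in AIH against asymptomatic livers, and both signs changed when counts were scaled to hepatocyte genes (0.11 and 0.24). Markers of red cells, endothelium and bile duct, which are known to make Aqp1, had these levels beside it. Of 12 tested erythroid genes, 10 were called higher in AIH against control (15.6% of all genes were called higher), and their summed level ran from 241 to 3396 CPM in AIH, 397 to 919 CPM in asymptomatic and 227 to 388 CPM in control livers. Of 14 endothelial genes, 3 were called higher, among them Pecam1, an adhesion molecule of endothelium (63.1 ± 20.7 CPM in AIH, 29.2 ± 3.24 CPM in asymptomatic and 28.9 ± 1.84 CPM in control livers; edgeR adjusted p = 0.00146 against control). Kdr, Tek, Stab1 and Oit3 of the same list went the other way without a call (log2 fold changes of -0.56, -0.37, -0.36 and -0.08 against control). The rest of the 14 had positive values, and the median was 0.44. The summed endothelial level ran from 440.0 to 719 CPM in AIH, 424 to 543 CPM in asymptomatic and 436 to 554 CPM in control livers. Of 10 tested bile duct genes, Spp1 alone was called higher (log2 fold change 2.18 ± 0.72, edgeR adjusted p = 0.0436), and Spp1 is also made by macrophages. This call was lost in 13 of 22 other settings, among them the fits without any 1 of the 4 controls, without AIH 3 (log2 fold change 0.81), with sex as a term and within either sex. The summed bile duct level ran from 106 to 978 CPM in AIH, 86.2 to 272 CPM in asymptomatic and 88.2 to 132 CPM in control livers. None of these lists had a marker at 0 in a whole group. Their part in the Aqp1 level was not tested.

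Aqp9 (ENSMUSG00000032204, chromosome 9, 71110659 to 71168682, minus strand) is the glycerol channel of hepatocytes and was the most abundant member. AIH livers 1 to 5 held 438.5, 475, 457, 419.6 and 428 CPM. Asymptomatic livers held 549, 649.9, 671, 385 and 340.0 CPM, and controls held 657, 689, 679.7 and 534 CPM. The 5 AIH livers lay close together, below all 4 controls and within the range of the asymptomatic livers, in which asymptomatic 4 and 5 were lowest of all 14. The means were 443 ± 22.3 CPM in AIH livers (SD, n = 5), 519 ± 151 CPM in asymptomatic livers (SD, n = 5) and 640.0 ± 71.6 CPM in control livers (SD, n = 4). The coefficient of variation was 5.04% in AIH, 29.1% in asymptomatic and 11.2% in control livers. The log2 fold change was -0.53 ± 0.20 in AIH against control and -0.23 ± 0.19 in AIH against asymptomatic livers, neither past the threshold. Against control it passed with DESeq2 (-0.54), with the share of unaligned reads as a term (-0.59) and with only these 2 groups in the fit (-0.53). It was -0.37 with library totals and -0.22 with hepatocyte scaling, the smallest differences of the 23 other settings. Gm32511, an antisense gene that overlaps Aqp9, had 3 to 59 counts per library, far below the 5111 to 12478 counts of Aqp9. The strand setting of the counting is not given in the sources used here.

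Aqp3 (ENSMUSG00000028435, chromosome 4, 41092722 to 41098183, minus strand) had 21 counts in all. They were 4 counts over the AIH libraries (2 each in AIH 1 and AIH 3), 1 over the asymptomatic libraries and 16 over the control libraries, of which control 4 alone held 14 and control 2 held 2. Aqp7 (ENSMUSG00000028427, chromosome 4, 41033074 to 41048139, minus strand) had 1 count in AIH 3 and 2 in AIH 5. It had 0 counts in the asymptomatic and control groups, which allows up to 0.0358 CPM over the asymptomatic and 0.0412 CPM over the control libraries at 3 counts per group. The adipocyte genes Adipoq, Plin1 and Lep had 0 counts in AIH and asymptomatic livers, and 5, 1 and 0 counts over the control livers. Of the other mouse aquaporins, Mip, Aqp2 and Aqp6 had 0 counts, Aqp12 had 1 and Aqp5 had 13 over 7 libraries, with at most 3 in a library. No direction is drawn for genes at this depth.

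Aqp11 (ENSMUSG00000042797, chromosome 7, 97724006 to 97738289, minus strand), the channel of the endoplasmic reticulum, was lower in AIH livers by a smaller margin. AIH livers 1 to 5 held 34.6, 21.4, 27.3, 22.8 and 21.8 CPM. Asymptomatic livers held 36.3, 39.5, 35.8, 47.5 and 61.7 CPM, and controls held 46.5, 37.2, 39.7 and 31.7 CPM. Every AIH liver lay below every asymptomatic liver, whereas AIH 1 lay above control 4. Groups that did not overlap, with AIH lower, were found for 2 of 5 members against asymptomatic livers, Aqp4 and Aqp11, beside 4.65% of all genes (16.9% in either direction). Against control livers they were found for 2 of 5, Aqp4 and Aqp9, beside 6.61% of all genes (19.8% in either direction). The log2 fold change of Aqp11 was -0.79 ± 0.19 against asymptomatic and -0.60 ± 0.19 against control livers, 1.73-fold and 1.52-fold lower. The call against control ended when any of controls 1, 2 or 3 or AIH 2, 3, 4 or 5 was left out (log2 fold changes of -0.65 to -0.52 in these fits). With counts scaled to hepatocyte genes the log2 fold change was -0.32 against control and -0.31 against asymptomatic livers, neither past the threshold. With sex as a term it was -0.63 and -0.85, and with the unaligned share as a term -0.57 and -0.60, against control and against asymptomatic livers, none past the threshold. Library totals (-0.44) and limma-voom (-0.43) ended the call against control only.

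Asymptomatic livers were compared with control livers to ask about Tet2 deletion in blood cells without overt hepatitis. This contrast did not choose the members, although it shares its controls with the one that did. Of the 5 tested members 0 were called, beside 0% of all genes. Among all genes, 0 were called by edgeR (13 without asymptomatic 2), 1542 had an unadjusted p under 0.05, DESeq2 called 118 and limma-voom with quality weights called 1299. DESeq2 and limma-voom called 0 of the 5 members as well, and 0 of the 5 had an unadjusted p under 0.05. Groups that did not overlap were found for 0 of 5 members and 2.43% of all genes (1.27% higher and 1.15% lower). Aqp8 had the lowest log2 fold change, -0.89 ± 0.74 (95% interval -2.35 to 0.56, edgeR adjusted p = 0.687), and was lower without being past the threshold. Aqp4 was at -0.06 ± 0.58 (interval -1.19 to 1.07, edgeR adjusted p = 0.977). Aqp9 was at -0.30 ± 0.20 (interval -0.69 to 0.09, edgeR adjusted p = 0.601). Aqp1 was at 0.04 ± 0.21 (interval -0.39 to 0.46) and Aqp11 at 0.19 ± 0.20 (interval -0.19 to 0.57), with edgeR adjusted p-values of 0.965 and 0.755. The intervals of Aqp1, Aqp9 and Aqp11 left out a 2-fold difference in either direction, while those of Aqp4 and Aqp8 did not. All these intervals were built from the standard error with the normal distribution, which makes them somewhat narrow for so few libraries. They take no account of sex. Asymptomatic 2 held the most Aqp4 of all livers (11.6 CPM) and the smallest unaligned share of its group (4.93%), and asymptomatic 5 held the least Aqp4 of its group (1.198 CPM) and the largest unaligned share (9.27%). The livers between them did not keep this order. Asymptomatic 1, 3 and 4 held 6.70, 3.14 and 3.88 CPM at unaligned shares of 8.31%, 7.80% and 8.05%. The log2 fold change of Aqp4 in asymptomatic against control was 0.60 with the unaligned share as a term, -0.42 with sex as a term and -0.59 within males, the sex of all asymptomatic livers. None of these was past the threshold.

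Several genes that handle glycerol, the solute of Aqp9, were lower in AIH livers. Of 17 tested genes 0 were called higher and 6 lower in AIH against control (6.08% of all genes were called lower). The median log2 fold change was -0.65, beside -0.01 over all genes. Gk, the kinase that traps glycerol after Aqp9 has let it in, held 100.7 ± 22.2 CPM in AIH livers (SD, n = 5), 201 ± 129 CPM in asymptomatic livers (SD, n = 5) and 301 ± 150.1 CPM in control livers (SD, n = 4). Its log2 fold change in AIH against control was -1.58 ± 0.40 (edgeR adjusted p = 0.0109). Gpd1, which turns glycerol phosphate into a glycolytic intermediate, held 262 ± 79.4 CPM in AIH livers (SD, n = 5), 660.5 ± 227 CPM in asymptomatic livers (SD, n = 5) and 618 ± 256 CPM in control livers (SD, n = 4; edgeR adjusted p = 0.0148 against control). Mgll, the lipase that releases glycerol from monoglycerides, fell by 1.68 ± 0.36 on the log2 scale (edgeR adjusted p = 0.00444), and G0s2, an inhibitor of fat breakdown, fell by 2.11 ± 0.45 (edgeR adjusted p = 0.00434). In AIH against asymptomatic livers 0 were called higher and 6 lower (10.7% of all genes were called lower). The number called lower was 0 with sex as a term (150 of all 14638 genes) and 0 with the unaligned share as a term (18 of 14638). It was 2 with library totals (442 of 14638), 2 with hepatocyte scaling (158 of 14638) and 10 with DESeq2 (2112 of 14618). Within females 0 of the 17 were called lower in AIH against control, beside 109 of all 15001 genes. DESeq2 over all libraries called 10 of the 17 lower, beside 1316 of 14618 genes. G0s2, Mgll, Gk and Gpd1 stayed lower than in control in all 23 other settings, also where the call was lost.

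Ppara, a nuclear receptor of fasting that is known to control glycerol genes in mouse liver, was listed with its targets. Of these 16 genes 11 were called lower and 0 higher in AIH against control (6.08% of all genes were called lower). The median log2 fold change was -1.45, beside -0.01 over all genes. Ppara itself held 71.5 ± 31.0 CPM in AIH livers (SD, n = 5), 152 ± 34.7 CPM in asymptomatic livers (SD, n = 5) and 203 ± 34.9 CPM in control livers (SD, n = 4). Its log2 fold change was -1.51 ± 0.33 against control (edgeR adjusted p = 0.00501). Cpt2, an enzyme of mitochondrial fatty acid import, fell by 1.33 ± 0.28 on the log2 scale (edgeR adjusted p = 0.00403). The number called lower was 6 without control 2 (617 of all 14957 genes) and 7 without control 4 (573 of 14986). It was 7 without AIH 2 (520 of 14414) and 4 within females (109 of 15001). Ppara and Cpt2 stayed lower than in control in all 23 other settings. In AIH against asymptomatic livers 3 were called lower and 1 higher (10.7% of all genes were called lower and 19.1% higher). There 1 was called lower when asymptomatic 1 or 2 or AIH 2 or 5 was left out. In that comparison 0 were called lower with sex or the unaligned share as a term, with library totals or with hepatocyte scaling. With the Dbp to Arntl term 7 were called lower.

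Carriers that drive bile formation, the flow that water channels follow, were called lower in 4 of 14 cases in AIH against control. None was called higher, and 6.08% of all genes were called lower. Slc10a1, the sodium-dependent bile acid uptake carrier, held 412 ± 94.1 CPM in AIH livers (SD, n = 5), 662 ± 111 CPM in asymptomatic livers (SD, n = 5) and 750.1 ± 128 CPM in control livers (SD, n = 4), with an edgeR adjusted p of 0.00631 against control. Abcc2, the canalicular exporter of conjugates, fell by 1.05 ± 0.28 on the log2 scale (edgeR adjusted p = 0.0147). With counts scaled to hepatocyte genes 1 of the 14 was called lower (152 of all 14638 genes), and within females 0 were (109 of 15001). Slc10a1 and Abcc2 stayed lower than in control in all 23 other settings. In AIH against asymptomatic livers 2 were called lower and 0 higher, close to the share of all genes called lower (10.7%). There 1 was called lower when asymptomatic 1 or AIH 1, 2, 3 or 5 was left out. With sex or the unaligned share as a term, with library totals or with hepatocyte scaling 0 were called lower.

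Genes of cell volume and osmolyte control were called about as often as all genes. Of 20 tested genes 4 were called higher and 1 lower in AIH against control (15.6% of all genes higher and 6.08% lower). In AIH against asymptomatic livers 5 were called higher and 1 lower (19.1% of all genes higher and 10.7% lower). The median log2 fold change against control was 0.05, beside -0.01 over all genes. Clcn3 was the gene called lower against control (log2 fold change -0.54 ± 0.18, edgeR adjusted p = 0.0449). The Slc6 carriers of the list, Slc6a6, Slc6a12 and Slc6a13, were at -0.26, -0.55 and -0.34 and were not called. Akr1b3, the aldose reductase that makes the osmolyte sorbitol, held 9.67 ± 3.78 CPM in AIH livers (SD, n = 5), 2.43 ± 0.854 CPM in asymptomatic livers (SD, n = 5) and 2.43 ± 0.922 CPM in control livers (SD, n = 4), with an edgeR adjusted p of 0.0012 against control. Lrrc8c, a subunit of the volume-regulated anion channel, held 19.0 ± 4.03 CPM in AIH, 8.14 ± 2.04 CPM in asymptomatic and 8.90 ± 1.40 CPM in control livers (edgeR adjusted p = 0.00238 against control). In AIH against control 16 of 16 monocyte and macrophage and 11 of 12 T cell genes were called higher (15.6% of all genes). Their summed levels ran from 1989 to 6193 CPM and from 30.9 to 127 CPM in AIH livers, 744 to 1001 CPM and 8.98 to 26.7 CPM in asymptomatic livers, and 633 to 1314 CPM and 12.01 to 24.0 CPM in control livers. Whether the osmolyte genes were read from immune cells was not tested. Within females 0 of the 20 were called higher against control, beside 730 of all 15001 genes. Akr1b3 and Lrrc8c stayed higher than in control in all 23 other settings. With the unaligned share as a term 0 of the 20 were called higher against asymptomatic livers, beside 544 of 14638 genes. With hepatocyte scaling 11 of the 20 were called higher there, beside 5482 of 14638 genes.

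The genes whose levels followed each member most closely were found by Pearson's r of log2(CPM + 0.5) over the 14 libraries, among genes with a mean of at least 1 CPM. They are named as a description, since libraries share their group and depth. For Aqp4 the 5 nearest were Ak3l2-ps (r = 0.923, or 0.740 after group means were subtracted), Xpot (0.919 and 0.770), Mia2 (0.916 and 0.751), Icmt (0.912 and 0.685) and Dcun1d4 (0.911 and 0.806). Ak3l2-ps is a pseudogene that may share reads with its parent gene. For Aqp9 they were Setd3 (r = 0.892), Hadh (0.891) and Txnrd2 (0.891), for Aqp8 Txnrd3 (0.8999), Stambp (0.871) and Tmem144 (0.866). For Aqp1 they were Pgm5 (0.914), Fam171a1 (0.877) and Gjb1 (0.859), and Smad5 (0.911) and Supv3l1 (0.902) were among those of Aqp11. No gene named here stood beside more than 1 member. Among the members themselves, Aqp4 had r = 0.581 with Aqp9 and 0.571 with Aqp11 over the 14 libraries. Once group means were subtracted these were 0.365 and -0.245, so the positive value of Aqp4 with Aqp11 was not seen within groups. The family was chosen on the AIH difference of Aqp4, and 14 libraries are too few to exclude a relation within groups. Aqp1 and Aqp8 had r = 0.514, or 0.680 within groups, the highest value within groups of the 10 pairs.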

How the data were processed

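Liver RNA of 14 samples was analysed from the deposited files, which hold raw counts per Ensembl gene with no normalization. The submitters' processing notes list HISAT2 2.1.0 and HTSeq 0.9.0, further cutadapt 1.12, FastQC 0.11.5, R 4.0 and edgeR, without their roles, and name GRCh38 and GRCm38, of which GRCm38 is the mouse build. The annotation release and the strand setting are not given in the sources used here. In each file 5 summary entries that name no gene were left out of all totals. Unaligned reads were 3.23% to 9.27%, reads not aligned uniquely 28.8% to 37.0%, ambiguous reads 1.38% to 3.05% and reads with no feature 2.29% to 3.29% per library. GENCODE annotation of GRCm38 gave symbols for 51719 of 51912 IDs. Promoter sequences are RefSeq's (GRCm38.p6), found for 6 of 7 members. No pair of libraries agreed within sampling noise.

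Counts were filtered with filterByExpr, scaled by TMM and tested with edgeR 4.0.16 (quasi-likelihood, two-sided, R 4.3.3) in 1 fit with a mean per group, with Benjamini-Hochberg adjustment over 14638 genes. Standard errors were derived from the F statistic. CPM are TMM-scaled. TPM used the union of exons. The pipeline was tested on simulated data. Sex was read from Xist and Y-linked counts and used as a covariate or to compare within a sex. The members and the 22 other gene lists (303 of 304 symbols matched) were chosen with earlier results of these data known. Up to 4 called genes with the smallest p of each list could be named. Alternatives were RLE factors, library totals, scaling to hepatocyte genes, 2 other filters, DESeq2 1.42.0, limma-voom (limma 3.58.1), a robust spread, sex or unaligned share as a term, only the 2 groups compared, contrasts within a sex, and each library left out. The Dbp to Arntl term, and all alternatives for the other lists, were added after the data were seen. A gene among those nearest to a member is not reported here.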

Additional observations from a re-analysis of the deposited data

Results flagged for a closer look

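Aqp8 in asymptomatic 3 stood at 214.7 CPM, far above the other 4 asymptomatic livers, which held 26.7 to 45.8 CPM. The gap to the next liver was 0.899 of the whole range of the group, above the critical value of 0.71 for 5 samples. This was 1 of 15 groups of values examined, and chance alone marks about 1 group in 20. Asymptomatic 3 had a log2 ratio of Dbp to Arntl of 5.93, beside 1.41 to 6.13 in the other 4 livers. Without asymptomatic 3 the log2 fold change of Aqp8 was -1.86 in asymptomatic against control and 1.70 in AIH against asymptomatic livers.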

How the results depend on the processing

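Across the 15 fold changes of the tested members, 340 values under other settings were computed. Of these, 290 kept their direction and their side of the threshold, 22 lost the call, 3 gained it and 25 changed sign. Aqp4 kept its sign in AIH against both groups in every setting run (-3.75 to -2.64 against control, -4.11 to -2.53 against asymptomatic), and lost the call within females, within males and, against asymptomatic livers, with sex as a term. In AIH against control 2 members were called, Aqp4 and Aqp11. They were 3 with DESeq2 or only the 2 groups (Aqp9 added), 2 with the unaligned term (Aqp4 and Aqp9), 1 with library totals alone, hepatocyte scaling, limma-voom or sex as a term, 0 within females or within males, and 1 to 2 with a library left out. In AIH against asymptomatic livers 2 were called, 1 with hepatocyte scaling or the unaligned share as a term and 0 with sex as a term or within males. The cause was not tested. With hepatocyte scaling the median over all genes was 0.28 in AIH against control, -0.18 in asymptomatic against control and 0.45 in AIH against asymptomatic livers, where 5482 genes were called higher and 158 lower in place of 2796 and 1559. With library totals the medians were 0.14, -0.05 and 0.17. Of all genes, 3174 were called in AIH against control (839 within females, 555 within males) and 4355 in AIH against asymptomatic livers (1372 with sex as a term, 562 with the unaligned term, 980 within males).

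Signs changed in values that were never called. In AIH against control, Aqp1 was at 0.11 with hepatocyte scaling and 0.34 within males. Aqp8 was there at 0.074 with hepatocyte scaling, 0.89 within males and 0.15 with the Dbp to Arntl term, and at -0.67 to 0.24 with a library left out (0.24 without control 1, 0.10 without control 3, 0.12 without AIH 1, 0.05 without AIH 2). In asymptomatic against control, Aqp1 was at -0.014 with library totals, -0.13 with hepatocyte scaling and -0.078 with the unaligned term, and at -0.10 to 0.16 with a library left out. Aqp4 was at 0.60 with the unaligned term and 0.078 with the Dbp to Arntl term, and at -0.57 to 0.20 with a library left out (0.14 without control 1, 0.20 without control 4, 0.08, 0.03 and 0.19 without asymptomatic 3, 4 and 5). Aqp9 was at 0.033 with the unaligned term and Aqp11 at -0.0091 with hepatocyte scaling. In AIH against asymptomatic livers, Aqp1 was at 0.24 with hepatocyte scaling and 0.047 within males, and Aqp9 at 0.24 with hepatocyte scaling. Of the 12 named genes of other lists, 275 such values held 0 changes of sign and 35 lost calls. Aqp3 and Aqp7 did not pass the filter, so no alternative fold change is given. No paired analysis was possible because replicate numbers follow accession order and pair no animals.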
